A study of Mus musculus with 4 samples.

Results

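The immediate early genes described here are 10 genes found in the deposited FPKM table by gene name, out of 46072 genes in all: Fos, Fosb, Junb, Egr1, Arc, Npas4, Nr4a1, Dusp1, Ier2 and Btg2. FPKM counts sequenced fragments per length of transcript and relative to all fragments mapped. Levels of different genes can then be set side by side where reads cover transcripts evenly. RNA quality and coverage along transcripts were not examined here, which limits every comparison between genes below. Poly(A) RNA was sequenced in 4 libraries from the brain of wild-type (WT) mice that were untreated. The samples are labelled endothelial cells and were cut out by laser capture microdissection, and the series title speaks of perfusion-fixed tissue and immunolabelled capture. All 4 form 1 group, called replicates 1 to 4, so there is no treated, stimulated or unfixed control, and each gene can only be compared with a fixed level or with other genes of the same library. Nothing in the labels ties each library to its own animal, so p-values here measure no more than how these 4 libraries vary, and that spread may be technical.

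Immediate early genes are switched on within minutes of a stimulus, without new protein synthesis, by transcription factors already bound to their promoters, chiefly serum response factor with its ETS partners and CREB. Their mRNAs are short-lived, and many carry AU-rich elements that speed decay. In brain they are known as reporters of recent neuronal firing, and several also respond in glia and endothelium to growth factors, shear stress and the handling of tissue, so that they are often read as a sign of dissection stress. Arc and Npas4 are the members most tied to neurons, whereas Fos, Junb, Egr1, Dusp1, Ier2 and Btg2 respond in most cell types.

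These libraries held RNA of many brain cell types, which bears on every value that follows. The median of 17 pan-endothelial markers ranged from 4.86 to 6.35 FPKM over the 4 libraries, and that of 14 pan-neuronal markers from 94.4 to 103 FPKM. Medians of 10 astrocyte and 10 oligodendrocyte markers ranged from 73.4 to 86.8 and from 78.2 to 94.5 FPKM, and no marker on these 4 lists was listed at 0 in all libraries. The summed level of the pan-neuronal list was 2806 to 3423 FPKM, against 255 to 328 FPKM for the pan-endothelial list. Medians of 10 microglia and 6 smooth muscle markers were 16.7 ± 1.36 and 14.3 ± 1.97 FPKM (SD, n = 4). Those of 8 choroid plexus and 8 pericyte markers were 24.3 ± 5.40 and 3.15 ± 0.373 FPKM. The 2 highest choroid plexus markers, Ttr and Kcnj13, measured 14493 ± 2381 and 180 ± 28.6 FPKM. The cell type that supplied the immediate early transcripts was not tested, and in such bulk RNA fewer cells of a type and less RNA per cell cannot be told apart. The depth behind these values is unknown, and intervals for counting error cannot be given.

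Promoter sequence was available for 7 of the 10 genes, and 4 are shown. Dusp1 had the highest level among those 7 genes and Npas4 and Fosb the lowest, and Fos, of middle rank, is the paralog of Fosb. Each run holds the 250 bases before the RefSeq start site on the gene's own strand, 5' to 3' (RefSeq, GRCm38.p6). Capitals mark TGACG, the core of the cyclic AMP response element bound by CREB, on either strand (CGTCA on the other one), and overlapping matches are joined.
Fos (chr12:85473640-85473889, + strand): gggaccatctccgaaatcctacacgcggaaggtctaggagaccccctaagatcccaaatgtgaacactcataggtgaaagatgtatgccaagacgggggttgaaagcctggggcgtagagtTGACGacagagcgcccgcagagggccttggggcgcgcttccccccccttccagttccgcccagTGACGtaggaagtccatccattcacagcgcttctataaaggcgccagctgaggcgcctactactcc
Dusp1 (chr17:26508473-26508722, - strand): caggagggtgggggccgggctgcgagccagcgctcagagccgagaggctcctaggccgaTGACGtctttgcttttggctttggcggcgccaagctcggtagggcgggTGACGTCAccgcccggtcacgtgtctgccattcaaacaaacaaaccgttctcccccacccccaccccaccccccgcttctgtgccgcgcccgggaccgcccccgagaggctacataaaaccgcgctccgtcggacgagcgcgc
Npas4 (chr19:4989972-4990221, - strand): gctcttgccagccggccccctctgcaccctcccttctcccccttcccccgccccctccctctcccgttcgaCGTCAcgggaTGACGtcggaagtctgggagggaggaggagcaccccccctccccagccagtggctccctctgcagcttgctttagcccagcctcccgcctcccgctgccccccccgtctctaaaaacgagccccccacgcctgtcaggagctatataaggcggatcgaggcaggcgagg
Fosb (chr7:19310046-19310295, - strand): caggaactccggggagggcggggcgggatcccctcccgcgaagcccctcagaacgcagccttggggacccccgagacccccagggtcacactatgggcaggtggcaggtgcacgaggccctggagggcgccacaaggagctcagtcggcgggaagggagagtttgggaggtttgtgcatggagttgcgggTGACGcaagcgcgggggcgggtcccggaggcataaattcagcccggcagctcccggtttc

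All 7 promoters searched, those of Fos, Fosb, Junb, Npas4, Nr4a1, Dusp1 and Btg2, held TGACG on at least 1 strand, compared with 17.8% of 32851 promoters of the same length. In Fos the nearest match to the start began at position -66 and in Fosb at -60, whereas in Dusp1 and Npas4 the nearest began at -140 and -169. The full palindrome TGACGTCA, which contains TGACG on both strands, was present in Dusp1 and Btg2 (1.55% of all promoters), and TGACGT in Btg2, Dusp1, Fos and Npas4 (6.47% of all). Of the other motifs searched on both strands, the GC box GGGCGG was found in 6 of 7 (32.7% of all), CCAAT in Btg2 and Junb (33.8%), the TATA box TATAAA in Fos alone of the 7 (12.4%), and the ETS core ACGGAA or CCGGAA in Nr4a1 alone (16.2%). The CArG box of serum response factor and the EGR motif GCGTGGGCG were in 0 of 7 windows (1.47% and 0.536% of all promoters). Sites beyond these 250 bases were not searched, and the promoters of Egr1, Arc and Ier2 were not available. The matches describe letters in the window and were not tested for binding. Fosb and Junb held 1 match each of TGACG on either strand, Npas4, Fos and Btg2 2 each, Dusp1 3 and Nr4a1 4. Members of high and of low level carried it.

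Most of the genes have short introns, with Nr4a1 as an exception at 17974 bases. Fos lies at chr12:85473890-85477273, Egr1 at chr18:34859823-34864984, Arc at chr15:74669083-74672570, Npas4 at chr19:4984355-4990316 and Fosb at chr7:19302696-19310051. Nr4a1, at chr15:101254269-101274795, and Dusp1, at chr17:26505590-26562128, have the longest annotated spans. By GENCODE M21 (GRCm38), the longest protein-coding transcript of each has a median of 1074 bases of intron, against 17835 over 16903 protein-coding genes measured above 0. Introns sum to under 2000 bases in 7 of the 10, compared with 11.4% of all. Junb and Ier2, on chromosome 8, have a single exon, and the median is 3.5 exons against 8. Transcript length is not unusual, with a median of 2648 against 2989 bases. In the 3' untranslated region, 8 of 10 hold the pentamer ATTTA of AU-rich elements, compared with 65.9% of all. Btg2 holds 5, Dusp1 and Fos 4 each and Nr4a1 3. At least 3 are present in 4 of 10, near the 35.7% of all. The longer element TTATTTATT is present in 2 of 10, Dusp1 and Fos, compared with 7.74% of all. Arc and Ier2 hold 0 ATTTA.

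Most immediate early genes were present at moderate levels, and 2 were scarce. In order of mean FPKM, Egr1 was highest at 27.5 ± 2.97 (SD, n = 4), followed by Dusp1 at 24.0 ± 2.81, Arc at 20.7 ± 1.36, Junb at 18.7 ± 2.38, Fos at 15.6 ± 3.99, Nr4a1 at 14.8 ± 1.90, Btg2 at 11.2 ± 0.877 and Ier2 at 6.91 ± 1.40. Npas4, at 1.49 ± 0.713 FPKM, and Fosb, at 0.543 ± 0.102 FPKM, were far lower. In a limma test of log2(FPKM + 1) against 1 FPKM, adjusted over 25206 genes, 8 of the 10 lay above 1 FPKM, 1 lay below it (Fosb) and 1 passed in neither direction (Npas4). Of all genes tested, 47.7% lay above and 40.1% below 1 FPKM, and the median gene stood at 1.43 ± 0.107 FPKM. With each library rescaled to 1 fixed sum, as TPM has, the median of all genes moved by 0.73 in log2 units, and the split of all genes became 54.3% above and 29.7% below. Of the members, 9 then lay above and none below. Together the 10 genes held 0.0304% ± 0.00198 of the summed FPKM.

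**Figure D1:**
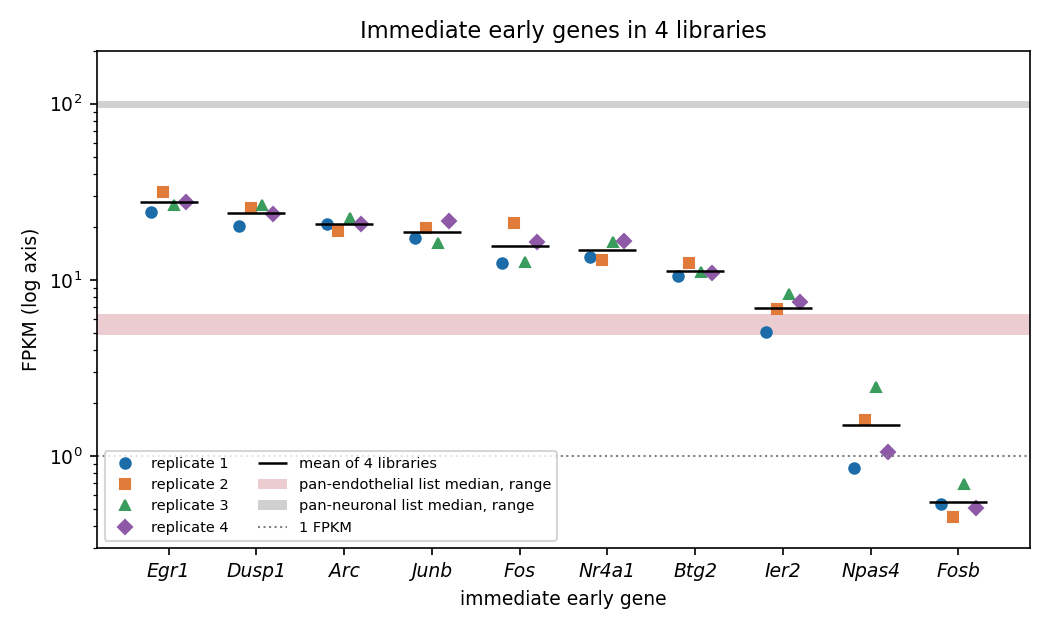
FPKM of each immediate early gene (log axis) in the 4 libraries, with bars at the mean and bands for the range of the pan-endothelial and pan-neuronal list medians. From Egr1 to Btg2 every library sits above the pan-endothelial band of 4.86 to 6.35 FPKM, Npas4 and Fosb sit below it, and all points sit below the pan-neuronal band of 94.4 to 103 FPKM.

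The AP-1 subunits spanned a wide range. AP-1 is a dimer of a FOS-type and a JUN-type leucine zipper protein, and Fos, Fosb and Junb encode 3 of its subunits. Fos measured 12.5, 20.9, 12.6 and 16.3 FPKM in replicates 1 to 4. Replicates 1 and 3 were alike, and replicate 2 was 1.68 times replicate 1. The log2(FPKM + 1) of Fos exceeded that of 1 FPKM by 3.02 ± 0.14 (SE; limma, adjusted p = 9.15e-06). Junb, a JUN-type partner that can restrain other AP-1 dimers, measured 17.4, 19.6, 16.2 and 21.6 FPKM. The Junb range overlapped that of Fos, and Junb exceeded Fos in 3 of 4 libraries. Fosb, a FOS-type subunit whose truncated product accumulates with repeated stimulation, measured 0.531, 0.451, 0.688 and 0.503 FPKM. All 4 Fosb values lay under 1 FPKM, with a log2 difference of -0.38 ± 0.07 (SE; limma, adjusted p = 0.00394). That call was lost at a pseudocount of 0.01 (adjusted p = 0.0557) and the sign turned with rescaling to a fixed sum, where the difference was 0.11 (adjusted p = 0.443). Fos was 18.4 to 46.4 times Fosb within a library, and the ranges did not overlap (exact sign-flip p = 0.125, the smallest that 4 libraries allow).

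Other transcription factors among the members fell into the same high and low levels. Egr1, a zinc finger factor and a target of serum response factor, measured 24.2, 31.3, 26.8 and 27.8 FPKM. It was the highest member in all 4 libraries, though in replicate 3 Dusp1, at 26.7 FPKM, was close behind. Nr4a1, an orphan nuclear receptor also called Nur77, measured 13.5, 12.9, 16.3 and 16.5 FPKM, with replicates 3 and 4 above 1 and 2. Npas4, a bHLH-PAS factor induced by calcium entry in neurons, measured 0.852, 1.61, 2.45 and 1.05 FPKM. Its highest library was 2.87 times its lowest, the widest ratio among the 10 genes, and replicate 1 lay under 1 FPKM while the other 3 lay above. Npas4 could not be told from 1 FPKM (log2 difference 0.27 ± 0.18 SE; limma, adjusted p = 0.214), but passed as above it with rescaling to a fixed sum (limma, adjusted p = 0.0107).

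The effector and feedback genes were all present. Arc, a cytoskeletal protein that drives internalisation of AMPA receptors and whose mRNA travels into dendrites, measured 20.7, 19.0, 22.3 and 20.7 FPKM, with the highest only 1.18 times the lowest. Dusp1, a phosphatase that switches off MAP kinases and so limits the response, measured 20.3, 25.5, 26.7 and 23.5 FPKM, with replicate 1 lowest. Btg2, an antiproliferative factor that promotes deadenylation of mRNA, measured 10.6, 12.5, 11.0 and 10.9 FPKM, with replicate 2 highest. Ier2, a nuclear protein of the early growth response, measured 5.02, 6.80, 8.30 and 7.52 FPKM, again lowest in replicate 1. Each of the 4 lay above 1 FPKM, Arc by 3.44 ± 0.05, Dusp1 by 3.64 ± 0.08, Btg2 by 2.61 ± 0.06 and Ier2 by 1.97 ± 0.12 (log2 scale, SE; limma, largest adjusted p = 3.56e-05, for Ier2).

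The order of levels was clear at its low end and not at its high end. The ranges of 4 of 9 neighbouring pairs did not overlap: Nr4a1 above Btg2, Btg2 above Ier2, Ier2 above Npas4, and Npas4 above Fosb. Among Egr1, Dusp1, Arc, Junb, Fos and Nr4a1 every pair of neighbours overlapped, although Egr1 exceeded Dusp1 in 4 of 4 libraries, by 0.19 ± 0.13 (SD, log2 scale). Fos and Nr4a1 were not ordered at all, with Fos higher in 1 of 4 libraries and a difference of 0.05 ± 0.43. The largest step was from Ier2 to Npas4, at 1.69 ± 0.26. No pair reached an adjusted p under 0.225 by the exact 2-sided sign-flip test over 9 pairs, which with 4 libraries cannot go below a raw p of 0.125.

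Most members lay between the medians of the endothelial and neuronal markers of the same libraries. Both lists are wide: gene means ran from 0.368 to 68.2 FPKM in the pan-endothelial list and from 22.7 to 1433 FPKM in the pan-neuronal list. Relative to the pan-endothelial median, 7 of 10 lay above, 2 below (Npas4 and Fosb) and 1 in neither direction (Ier2), compared with 27.2% above and 65% below among all 25206 genes (limma, adjusted over all genes). These calls and shares rest on p-values that are too small, because all genes share the reference. Egr1 was 4.81 ± 0.533 (SD, n = 4) times that median, Dusp1 4.18 ± 0.226 times, Arc 3.63 ± 0.429 times, Junb 3.28 ± 0.490 times, Fos 2.73 ± 0.689 times, Nr4a1 2.58 ± 0.239 times and Btg2 1.97 ± 0.239 times, each higher in 4 of 4 libraries. Ier2, at 1.19 ± 0.116 times, was higher in 4 of 4 but did not pass, and its sign turned when the mean of the list served as reference (log2 difference -0.18). Npas4 stood at 0.253 ± 0.101 and Fosb at 0.0949 ± 0.0161 of the pan-endothelial median. Relative to the pan-neuronal median, 0 of 10 lay above and 10 lay below, as did 96.5% of all genes, with 2.49% above, so this direction is the common one. The pan-neuronal median was 3.66 ± 0.473 times Egr1, 4.83 ± 0.308 times Arc, 6.72 ± 1.73 times Fos and 187 ± 28.6 times Fosb. In percentile of mean FPKM among the genes tested, Egr1 stood at 89.3, Fos at 83.0, Npas4 at 50.3 and Fosb at 39.2.

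Libraries did not rank the members alike, but replicate 1 was low for most of them. Only Arc exceeded its own 4-library mean in replicate 1, on the log2(FPKM + 1) scale. Of the 10 genes, 6 had their lowest value in replicate 1 (Fos, Egr1, Npas4, Dusp1, Ier2 and Btg2) and 0 their highest. Of the 13654 genes averaging 1 FPKM or more, 25.1% were lowest in replicate 1 and 25.6% were highest in it. With each library rescaled to 1 sum, 4 of 10 members were lowest there, against 17.8% of those genes. Replicate 2 held the highest values of Fos, Egr1 and Btg2, and replicate 3 those of Fosb, Arc, Npas4, Dusp1 and Ier2. Junb and Nr4a1 were highest in replicate 4. Of those 13654 genes, 29.2% were highest in replicate 2, 24.8% in replicate 3 and 20.5% in replicate 4. With rescaling, 3 of 10 members were highest in replicate 2 and 6 in replicate 3, against 31.5% and 22.2% of those genes. Replicate 3 also had the highest pan-neuronal and pan-endothelial medians (103 and 6.35 FPKM) and replicate 1 the lowest pan-endothelial one (4.86 FPKM), and their part in these deviations was not tested.

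**Figure D2:**
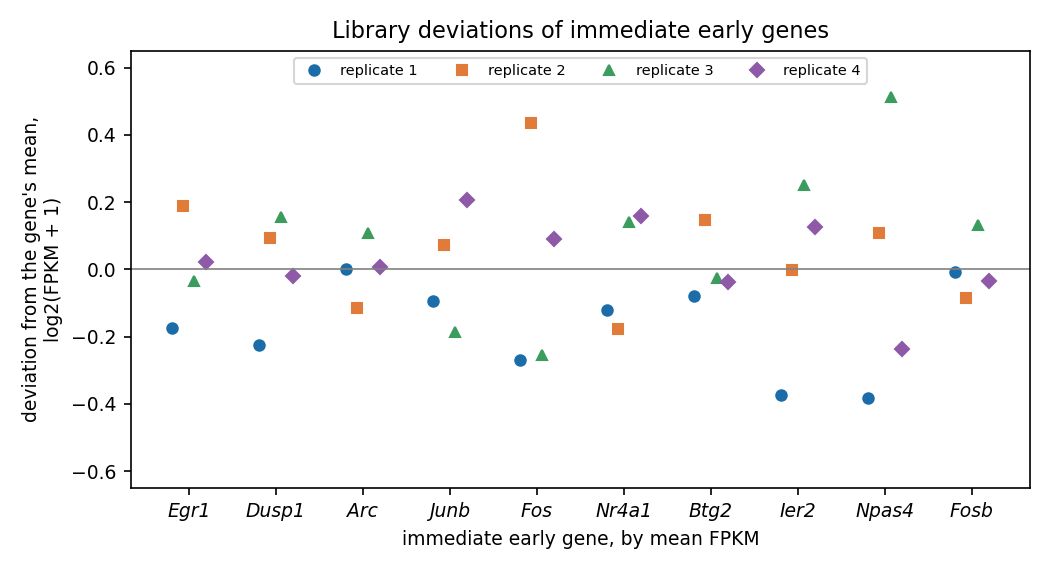
Deviation of each library from the gene's mean over 4 libraries, in log2(FPKM + 1), for the 10 immediate early genes. Replicate 1 lies below 0 for 9 of the 10, Fos peaks in replicate 2 at 0.43, and Npas4 peaks in replicate 3 at 0.51.

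Fos and Arc differed in how much they varied. The SD of log2(FPKM + 1) was 0.33 for Fos, against a median of 0.18 over the 4266 genes within 2-fold of its mean, and 91.2% of those genes varied as much or less. For Arc the SD was 0.09 against 0.17 over 3772 genes, with 11.2% at or below it. Npas4 (0.40 against 0.29) and Ier2 (0.27 against 0.23) were also above the median of like genes, and Btg2 (0.10 against 0.20) and Fosb (0.09 against 0.27) were below it. Egr1, Junb, Nr4a1 and Dusp1 lay within 0.02 of it. These spreads often rest on 1 library. Without replicate 2 the SD of Fos was 0.20, against 0.17 for like genes, with 63.3% at or below it, that of Arc was 0.06 and that of Btg2 was 0.03. Without replicate 3 the SD of Npas4 was 0.25 against 0.26 for like genes, and that of Fosb was 0.04. Without replicate 1 the SD of Ier2 was 0.13 against 0.21, and that of Dusp1 was 0.09 against 0.16. The pseudocount of 1 compresses the log scale for low genes such as Fosb, whose SD on the FPKM scale was 18.7% of its mean, compared with 25.6% for Fos.

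**Figure D3:**
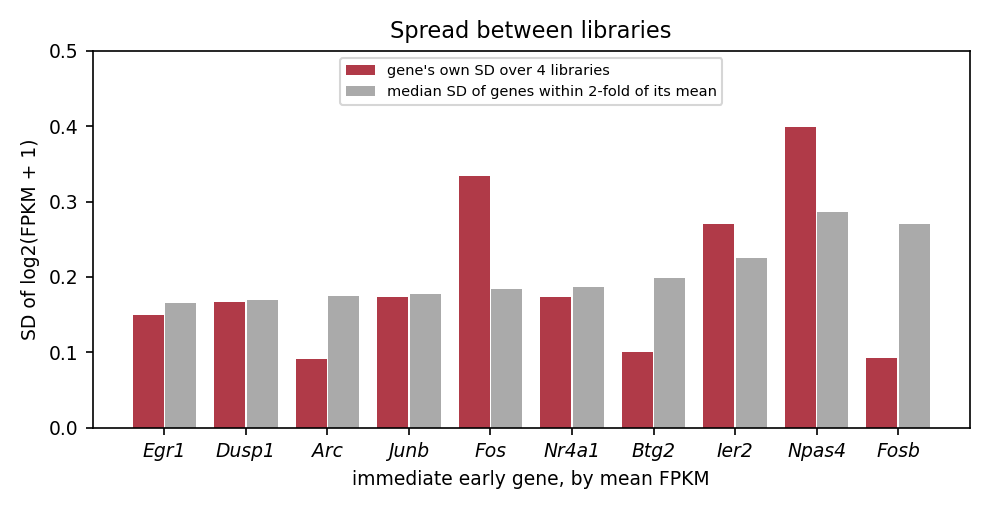
SD over the 4 libraries of log2(FPKM + 1) for each immediate early gene (red bars) beside the median SD of all tested genes within 2-fold of its mean FPKM (grey bars). With all 4 libraries Fos, Npas4 and Ier2 exceed the grey bar, and Arc, Btg2 and Fosb fall well under it.

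By root mean square difference of log2(FPKM + 1) over the 4 libraries, among 15882 protein-coding genes, the profiles closest to Fos were those of Stx18 (0.08), Esam (0.09), which is also on the pan-endothelial list, and Rrp36 (0.10). Esam measured 15.5 ± 3.56 FPKM. Stx18, Esam and Rrp36 were each higher in replicates 2 and 4 than in 1 and 3, as Fos was. They were picked for likeness to Fos in these same libraries, so that shared pattern supports nothing. Those closest to Arc were Eny2 (0.05), Dynlt1b (0.07) and Ift57 (0.07). This measure compares levels as well as their deviations, so a gene must lie at a similar FPKM to be near.

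Members lay above some genes of their families and below others. The 17 pairs compared were chosen after values were seen, so their counts support nothing: the member was higher in all 4 libraries in 13 pairs and lower in 4. Egr1 was 16.4 to 22.1 times Egr2 (1.42 ± 0.144 FPKM, SD, n = 4), 11.9 to 20.9 times Egr3 (1.87 ± 0.365) and 6.80 to 10.2 times Egr4 (3.35 ± 0.768) within libraries. Nr4a1 was 1.13 to 2.15 times Nr4a2 (9.43 ± 1.82) and 14.6 to 23.4 times Nr4a3 (0.832 ± 0.246). Junb lay at 0.425 to 0.520 times Jund, a JUN-type gene known for steady expression, and was 1.86 to 2.88 times Jun, the founding member of that family. Fos was 17.4 ± 5.40 times Fosl2 (0.910 ± 0.106), whereas Fosb was 0.510 to 0.854 times Fosl2. Dusp1 was 1.49 to 2.22 times Dusp6, a phosphatase of MAP kinases (11.9 to 14.4 FPKM), and Btg2 was 1.13 to 1.51 times Btg1 (8.08 ± 1.17) and 0.348 to 0.487 times Tob1, of the same antiproliferative family. Ier2 was 0.590 to 0.772 times Ier5.

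Other genes of the response ranged from scarce to abundant. Of 9 further AP-1 and ATF genes, 4 lay above 1 FPKM, 2 below and 3 in neither direction, a share above near the 47.7% of all genes tested, and the list's median was 0.941 ± 0.139 FPKM (SD, n = 4). With rescaling to a fixed sum, none of the 9 lay below. Jund measured 40.7 ± 4.05 FPKM, Mafg and Mafk, small MAF partners, 8.95 ± 1.03 and 5.06 ± 0.689, and Jun 8.79 ± 1.09, whereas Fosl1, a FOS-type subunit, lay below 1 FPKM at 0.278 ± 0.152 and Maff at 0.364 ± 0.260. Of 18 other early transcription regulators, 13 lay above 1 FPKM and 0 below, with a median of 3.26 ± 0.393. Their highest were Bhlhe40, a clock-linked repressor, at 22.4 ± 3.25, Crem, a CREB relative, at 16.6 ± 3.72, Klf6, a Krüppel-like factor, at 12.8 ± 1.56 and Ier5 at 10.5 ± 1.38, and their lowest were Klf4, another Krüppel-like factor, at 1.35 ± 0.285 and Nr4a3, which both passed in neither direction.

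Among 26 early signalling and feedback genes, 20 lay above 1 FPKM and 1 below, with a median of 7.92 ± 0.608 FPKM (SD, n = 4). Over all genes tested, 47.7% lay above and 40.1% below. Plk2, an activity-induced kinase, measured 45.7 ± 6.66, Sgk1, a glucocorticoid-regulated kinase, 34.7 to 41.9, Tob1, a relative of Btg2, 28.3 ± 2.40, and Rhob, a small GTPase, 27.5 ± 7.46 FPKM. Pim1, a kinase, lay below 1 FPKM at 0.244, 0.177, 0 and 0.154 in replicates 1 to 4, and Sik1, a salt-inducible kinase, at 0.893 ± 0.281 passed in neither direction. All 9 activity-regulated synaptic and secreted genes lay above 1 FPKM, with a median of 16.2 ± 2.40. Scg2, a secretogranin, measured 128 ± 7.65 FPKM, Nrn1, neuritin, 93.5 ± 10.2, Syt4, a synaptotagmin, 62.8 ± 1.17 and Vgf, a neuropeptide precursor, 19.4 ± 1.11. The lowest were Bdnf, a neurotrophin, at 5.04 ± 1.19 and Inhba, an activin subunit, at 1.97 ± 0.719. Both were above Npas4, the transcription factor known to act on Bdnf, by mean FPKM, although the Inhba range of 1.44 to 3.03 FPKM overlapped that of Npas4.

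Most genes of the upstream machinery lay above 1 FPKM. Of 23 kinases and transcription factors that act on immediate early promoters, 21 lay above 1 FPKM and 0 below, with a median of 6.75 ± 0.924 FPKM (SD, n = 4). Map2k1, the kinase MEK1, measured 82.8 ± 3.26 FPKM, Mef2c, an activity-regulated MADS-box factor, 45.9 ± 1.13, and Mapk3, the kinase ERK1, 44.8 ± 2.26. Elk3 and Rps6ka3, an ETS partner of serum response factor and a ribosomal S6 kinase, were lowest at 1.56 ± 0.409 and 1.54 ± 0.391 and passed in neither direction. Of 12 chaperones linked to stress, 11 lay above 1 FPKM and 0 below, with a median of 79.3 ± 9.52 FPKM. The constitutive Hspa8 measured 693 ± 97.0 FPKM, with Hsp90ab1 at 346 ± 21.0, Hsp90aa1 at 265 ± 28.7 and Hspe1 at 152 ± 14.3. The heat-inducible Hspa1a and Hspa1b were the lowest of that list, at 2.10 ± 0.419 and 1.43 ± 0.204 FPKM, though they are near-identical copies with an uncertain division of reads. These counts stand beside the 47.7% of all genes tested that lay above 1 FPKM and the 40.1% below. With genes under a mean of 1 FPKM left out, 90% of the rest lay above.

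**Figure D4:**
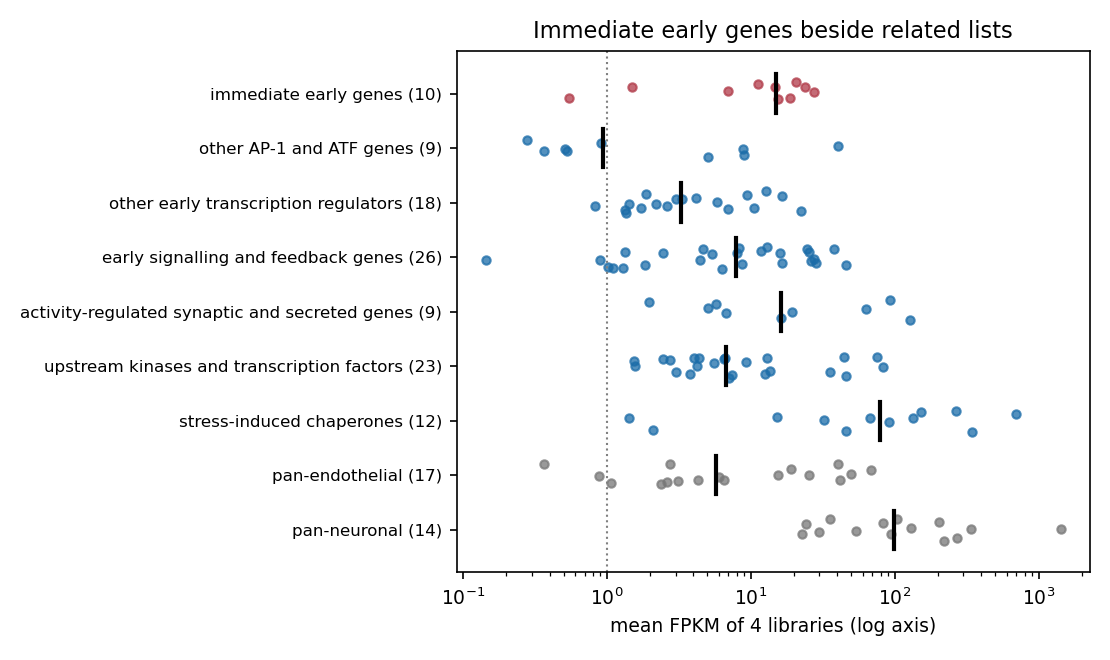
Mean FPKM over 4 libraries (log axis) of each gene in the immediate early list (red), 6 related lists (blue) and the pan-endothelial and pan-neuronal lists (grey), with black bars at the mean over libraries of the list median and gene numbers in brackets. The immediate early median is 14.9 FPKM. Lower are the other AP-1 and ATF genes (0.941), other early transcription regulators (3.26), early signalling genes (7.92) and upstream genes (6.75). The pan-endothelial median is also lower (5.75). Higher are the activity-regulated genes (16.2), stress-induced chaperones (79.3) and pan-neuronal markers (99.6).

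Sharing of reads was checked for each member. By annotation, only Junb and Dusp1 overlap other genes: Junb overlaps Prdx2 (196 FPKM) on the opposite strand over 351 bases, and the span of Dusp1 overlaps Ergic1 (33.1 FPKM) and Gm8225 (1.23 FPKM) on the opposite strand and 2 other gene models. None of these shares an exon base with the longest protein-coding transcript of Junb or Dusp1. No transcript of another gene matched a member at 90% identity or more.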

How the data were processed

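Poly(A) RNA of 4 laser-captured mouse brain vascular samples was sequenced. The authors deposited 1 table of FPKM for 46072 genes; StringTie 2.2.1, HISAT2 2.2.1, bcl2fastq 2.20, SAMtools and the build GRCm38 are listed, with no roles, per the submitters' processing notes. Not given in the sources used here are the annotation, the filters, the strand setting and how reads matching several places were treated. Read counts were not part of the values analysed here, so depth is unknown. FPKM depends on each library's total, so a few high genes lower all others.

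Library columns were matched to samples by library name. Values were analysed as log2(FPKM + 1), a scale that understates fold differences of low genes. limma 3.58.1 in R 4.3.3 gave 2-sided moderated tests with a mean-variance trend on all 25206 genes above 0 in any library, adjusted by Benjamini-Hochberg and called at 0.05, against 1 FPKM and, within library, against the medians of 17 pan-endothelial and 14 pan-neuronal markers. In the pan-endothelial fit the prior degrees of freedom were infinite. All genes share the reference there, so its p-values are too small and only calls and differences are given. The calls are cut from the same p-values and carry the same fault. The pan-neuronal fit shares its reference in the same way, so its calls may also be too many. The moderated test without the trend was run on simulated independent genes with known differences. That simulation had no shared reference, so it does not check the trend or the fits against list medians. Neighbours in the order were compared by an exact sign-flip test over 16 patterns.

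Gene structure came from GENCODE M21 (GRCm38), promoters from RefSeq and sequence copies from BLAST+ 2.17.0. Named genes are the 10 members, the 4 highest and 2 lowest of each of 6 pathway lists, the 2 highest of each marker list where used, the 3 genes nearest in profile to Fos and to Arc, and overlapping genes. Further family members (Egr2, Egr3, Egr4, Nr4a2, Fosl2, Dusp6, Btg1) were named after values were seen, and 1 gene that the rule names is not reported here. The members and lists were chosen with earlier results of these data known. Alternatives covered the pseudocount, filters, scaling, variance model, list mean and each library left out, and a filter at a mean of 1 FPKM was added after seeing the data. Figures were drawn with matplotlib 3.10.9.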

Additional observations from a re-analysis of the deposited data

Results flagged for a closer look

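Of 66 named genes checked for a library far from the other 3, 1 stood apart, where chance gives about 1 in 20. Map2k1, the kinase MEK1, measured 87.6 FPKM in replicate 2 and 80.8 to 81.8 FPKM in the others. None of the 10 immediate early genes stood apart in this way.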

How the results depend on the processing

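No paired analysis was possible because the series has 1 group. The counts of members above each reference stayed within 1.5 times under every alternative run, as did the number of neighbour pairs ordered alike in all libraries and the median SD of the members. The SDs of single members did not: leaving out 1 library moved those of Fos, Fosb, Arc, Npas4, Dusp1, Ier2 and Btg2 by over 1.5 times. Below 1 FPKM, the member count of 1 became 0 at a pseudocount of 0.01, with rescaling to a fixed sum, and with genes under a mean of 1 FPKM left out; the last also removes Fosb by construction, which took the count below the pan-endothelial median from 2 to 1. With rescaling Fosb lay at 0.11 from 1 FPKM on the log2 scale, and against the list mean Ier2 lay at -0.18 from the pan-endothelial reference. For the other AP-1 and ATF genes, 4 lay below 1 FPKM with a filter at a mean of 0.1 FPKM, 0 with rescaling and 0 with the filter at 1 FPKM, and for early signalling genes 0 with that filter, in place of 2 and 1. Leaving out any 1 library changed no member's call. The 4 libraries of unknown depth limit precision, and Npas4 has the largest standard error of the members against 1 FPKM.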
